A study of Mus musculus with 51 samples.

Results

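Enzymes that oxidise, hydrolyse or conjugate foreign compounds and lipids were followed through sorted cell fractions of bleomycin-treated and saline-treated mouse lungs. The set holds the genes of the count table whose mouse symbol begins with Cyp (cytochrome P450), Aldh (aldehyde dehydrogenase), Fmo (flavin-containing monooxygenase), Ces (carboxylesterase) or Ugt (UDP-glucuronosyltransferase) and a digit, without Cyp51, Aldh18a1 and pseudogenes. These were 165 of 36528 identifiers, of which 98 were Cyp, 21 Ugt, 20 Aldh, 19 Ces and 7 Fmo genes. No count was seen for 15 of them in any library. A filter on low counts was passed by 80 members in at least 1 fraction and by 53 in all 4, and 85 members passed it in none.

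The animals were male C57/B6 mice that had received bleomycin, which injures the lung and leaves fibrosis, or saline into the trachea, and lungs were taken at day 14. Cells were sorted by flow cytometry into CD31+ (endothelial), CD45+ (leukocyte), EpCAM+ (epithelial) and triple-negative cells, which carry none of the 3 surface markers. Each fraction had 8 bleomycin libraries, except CD31+ with 7, and 5 saline libraries. The sources used here give no dose or animal age and do not say which libraries came from the same animal, so p-values measure the spread between these libraries.

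Libraries held 15.7 to 36.5 M counts (M, 1000000; median 22.7 M). Levels are counts per 1 M counts (CPM) on TMM-scaled library sizes of the fraction. The defining genes followed the labels: Pecam1 (CD31) lay between 2948 and 3785 CPM in bleomycin and between 3316 and 3708 CPM in saline CD31+ libraries, and Ptprc (CD45) between 745 and 1247 CPM in bleomycin and between 1379 and 1849 CPM in saline CD45+ libraries. Epcam ran from 183 to 237 CPM in bleomycin and from 165 to 187 CPM in saline EpCAM+ libraries, and Col1a1 from 8928 to 20650 CPM in bleomycin and from 4611 to 7532 CPM in saline triple-negative libraries. These are bulk values, in which fewer cells of a type and less RNA per cell cannot be told apart.

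Cytochrome P450 enzymes insert oxygen into drugs, pollutants, fatty acids, sterols and retinoids, with electrons from P450 reductase (Por), and flavin-containing monooxygenases oxidise nitrogen and sulfur atoms of foreign compounds. Aldehyde dehydrogenases turn aldehydes into acids, carboxylesterases split esters and neutral lipids, and UDP-glucuronosyltransferases attach a sugar acid that makes compounds soluble. In the lung the xenobiotic P450s are known from club cells, which carry Cyp2f2, and from endothelium, where Cyp1a1 is induced through the aryl hydrocarbon receptor (Ahr).

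The promoters of Cyp1a1, Cyp1b1 and Cyp26b1 are shown because Cyp1a1 and Cyp1b1 are textbook targets of the aryl hydrocarbon receptor and because the levels of Cyp1a1 and Cyp26b1 spread widely between libraries of 1 group. Each window runs from 250 bases before to 50 after 1 annotated transcript start (RefSeq, GRCm38.p6), 5′ to 3′ on the gene's strand; for Cyp1a1 and Cyp26b1 this is not the outermost start, since their annotated spans of chr9:57687928-57703824 and chr6:84571414-84593908 begin further upstream. The bases in capitals mark GCGTG, the core that the receptor dimer binds, searched on both strands (CACGC on the other).
Cyp1a1, chr9:57697363-57697662, plus strand: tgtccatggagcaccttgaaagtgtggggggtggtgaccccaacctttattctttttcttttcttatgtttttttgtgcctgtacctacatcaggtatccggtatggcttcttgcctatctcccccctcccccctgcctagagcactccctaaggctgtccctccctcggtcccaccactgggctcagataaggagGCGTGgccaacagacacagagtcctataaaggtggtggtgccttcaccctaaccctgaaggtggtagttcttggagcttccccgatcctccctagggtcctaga
Cyp1b1, chr17:79715012-79715311, minus strand: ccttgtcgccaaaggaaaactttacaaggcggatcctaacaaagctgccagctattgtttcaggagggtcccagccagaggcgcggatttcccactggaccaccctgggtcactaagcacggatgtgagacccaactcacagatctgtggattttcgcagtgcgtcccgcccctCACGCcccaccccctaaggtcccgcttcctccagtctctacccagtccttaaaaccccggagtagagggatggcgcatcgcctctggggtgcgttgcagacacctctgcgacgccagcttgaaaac
Cyp26b1, chr6:84593761-84594060, minus strand: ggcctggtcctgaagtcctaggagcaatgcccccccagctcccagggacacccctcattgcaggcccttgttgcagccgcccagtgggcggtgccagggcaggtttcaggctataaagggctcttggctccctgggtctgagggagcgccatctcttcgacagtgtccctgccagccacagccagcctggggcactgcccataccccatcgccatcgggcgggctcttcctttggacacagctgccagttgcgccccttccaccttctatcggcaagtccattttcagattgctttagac
The motif occurred in 1 place in the Cyp1a1 window, in 1 place in the Cyp1b1 window and in 0 places in the Cyp26b1 window. It was present in 10639 of 32851 windows of all genes (32.4%) and in 26 of 143 windows of 129 members (18.2%). A match describes these letters and not a bound site.

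Where each enzyme was expressed without injury was read from the 20 saline libraries, as CPM per kb of exon on a scale common to all libraries. Of 78 members tested, 45 were higher in EpCAM+ than in the mean of the other saline fractions (57.7%, where 37.3% of all genes were) and 42 in triple-negative libraries (53.8%, where 36.0% were). CD45+ libraries had 20 (25.6%, where 40.0% were) and CD31+ libraries 19 (24.4%, where 34.3% were). Counted with the 8 Ugt1a genes as 1, the CD45+ count was 13. The epithelial and triple-negative fractions thus held members above the share of all genes, and the leukocyte and endothelial fractions held them below it.

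In saline CD31+ libraries the highest levels per kb were those of Cyp4b1, which activates furan toxins and hydroxylates fatty acids (776 ± 18.7, SD, n = 5), Fmo1 (418 ± 27.3), Cyp1a1 (360 ± 306), Aldh2, the mitochondrial acetaldehyde dehydrogenase (340 ± 25.7), and Cyp26b1, which degrades retinoic acid (115 ± 109). Cyp4b1 stood 4.57 log2 units (SE 0.31) above the mean of the other saline fractions, Fmo1 5.00 (0.25), Cyp26b1 5.48 (0.65) and Cyp1a1 6.14 (0.85), with adjusted p of 1.01e-10, 7.83e-13, 3.19e-07 and 2.68e-06. Saline EpCAM+ libraries were led by Cyp2f2, which activates naphthalene in mouse club cells (776 ± 291), Ces1d, a carboxylesterase that hydrolyses stored lipid (649.1 ± 42.0), Aldh2 (232 ± 14.1), the retinaldehyde dehydrogenase Aldh1a1 (120 ± 19.8) and Aldh1a7 (88.2 ± 11.8). Cyp2f2 was 4.21 log2 units (SE 0.48) and Ces1d 4.45 (0.34) above the other fractions (adjusted p = 1.36e-07 and 4.24e-10).

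Triple-negative libraries held most of Fmo2 (444 ± 78.5 CPM per kb), the lung form of the Fmo family, followed by Aldh2 (195 ± 15.4), Aldh1a1 (130 ± 56.0), Ces1d (116 ± 36.1) and the retinaldehyde dehydrogenase Aldh1a2 (102 ± 24.9). Cyp2e1, which oxidises ethanol and small solvents, was 8.66 log2 units (SE 0.33) above the other fractions there (adjusted p = 9.44e-15). The leading levels in CD45+ libraries were those of Cyp4f18 (128 ± 28.3), which oxidises leukotrienes in mouse leukocytes, Aldh2 (74.6 ± 4.81), the sterol hydroxylase Cyp27a1 (53.7 ± 8.71), Cyp2f2 (44.9 ± 29.1) and Aldh3b1 (30.1 ± 3.41). Cyp4f18 was 7.39 log2 units (SE 0.27) above the other fractions (adjusted p = 3.54e-15).

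**Figure D1:**
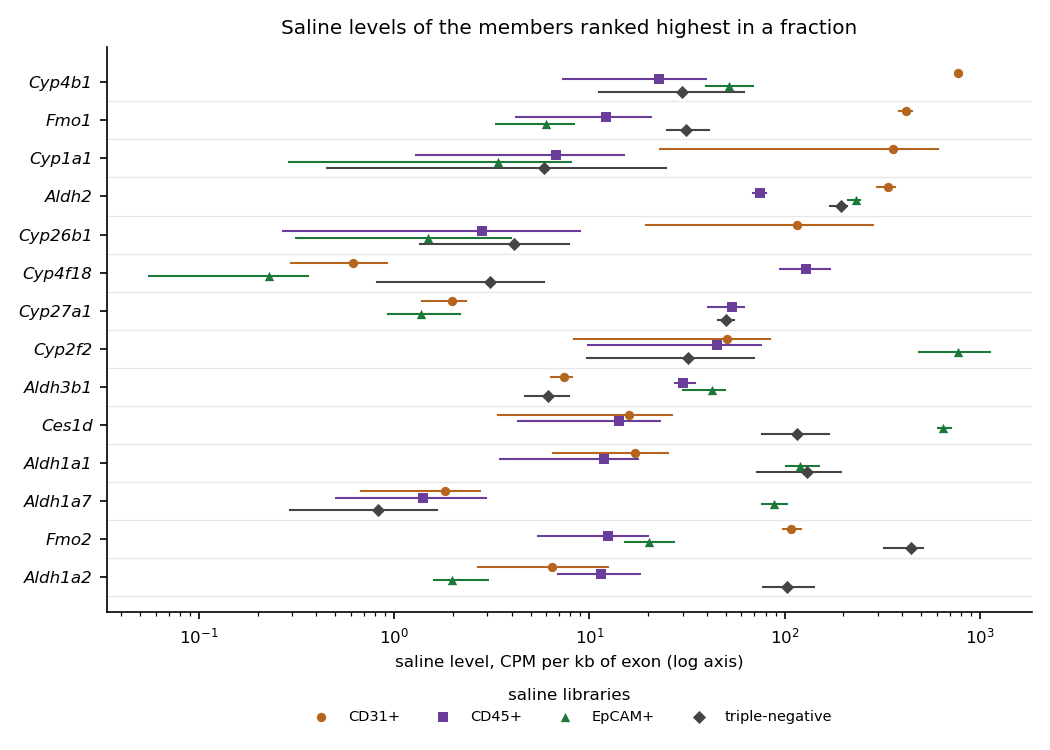
Level of the members ranked highest in at least 1 saline fraction, in CPM per kb of exon on a log axis, with the mean (symbol) and the range of 5 saline libraries (line) in each fraction. Cyp4b1, Fmo1, Cyp1a1 and Cyp26b1 have their highest mean in CD31+ libraries and Cyp2f2 in EpCAM+ libraries, while the CD31+ ranges of Cyp1a1 and Cyp26b1 are wide.

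For some members the signal outside the fraction of highest expression was of the size of that fraction's own marker genes, and for others it was larger. In saline CD45+, EpCAM+ and triple-negative libraries Cyp1a1 stood at 1.87%, 0.95% and 1.63% of its saline CD31+ level. The endothelial gene Cdh5 stood at 2.21%, 1.19% and 1.65%, and Pecam1 at 6.28%, 1.23% and 1.98%. In the same order Cyp4b1 stood at 2.92%, 6.68% and 3.85%, and Fmo1 at 2.89%, 1.44% and 7.49%. Cyp2f2 stood at 6.5%, 5.79% and 4.12% of its saline EpCAM+ level in CD31+, CD45+ and triple-negative libraries, and the club cell gene Scgb1a1 at 7.26%, 8.3% and 4.15%. Larger shares of the saline EpCAM+ level were seen in triple-negative libraries for Ces1d (17.8%), Cyp2b10 (21.7%) and Cyp2s1 (25.4%). What part of these levels came from cells of the other type was not tested.

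More members fell than rose under bleomycin in the endothelial and triple-negative fractions. In CD31+ libraries 5 of 64 tested members were higher (24.2% of all genes were) and 22 were lower (24.6% of all genes), with groups that did not overlap for 19 (26.4% of all genes) and a median log2 fold change of -0.06, against -0.006 over all genes. In triple-negative libraries 7 of 68 were higher (27.7% of all genes) and 35 lower (27.7%), 22 did not overlap (29.7%), and the median was -0.36, against 0.009 over all genes. As shares of the tested members, 34.4% were lower in CD31+ and 51.5% in triple-negative libraries, and 7.81% and 10.3% were higher.

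EpCAM+ libraries had 19 of 69 members higher (31.2% of all genes) and 32 lower (28.9%), with 19 not overlapping (35.8%) and a median of -0.25, against 0.016 over all genes. CD45+ libraries had 20 of 61 higher (28.4% of all genes) and 14 lower (26.8%), with 17 not overlapping (31.4%) and a median of 0.11, against -0.004 over all genes. The leukocyte shares were near those of all genes, and 8 of the 20 rises were Ugt1a genes that share exons. With these counted as 1, 13 of 54 members were higher and 14 lower in CD45+ libraries, and the median was -0.14 in place of 0.11. Then 25 were lower in EpCAM+ and 28 in triple-negative libraries. The medians were -0.14 in CD31+, -0.2 in EpCAM+ and -0.36 in triple-negative libraries.

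All members together took 0.342% ± 0.065 of counts in bleomycin and 0.751% ± 0.073 in saline CD31+ libraries (SD, n = 7 and 5). In these sums the 8 Ugt1a genes enter as 8 members, so their shared counts enter several times. Ugt1a9 alone averaged 6.01 CPM in bleomycin and 4.31 CPM in saline CD31+ libraries. In CD45+ libraries its means were 84.5 and 68.4 CPM. In triple-negative libraries the shares were 0.403% ± 0.097 in bleomycin and 0.571% ± 0.085 in saline, in EpCAM+ libraries 0.723% ± 0.097 and 0.612% ± 0.061, and in CD45+ libraries 0.215% ± 0.015 and 0.237% ± 0.024. The 2 CD31+ ranges did not overlap (0.256% to 0.450% in bleomycin, 0.623% to 0.807% in saline), while those of the other fractions did.

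**Figure D2:**
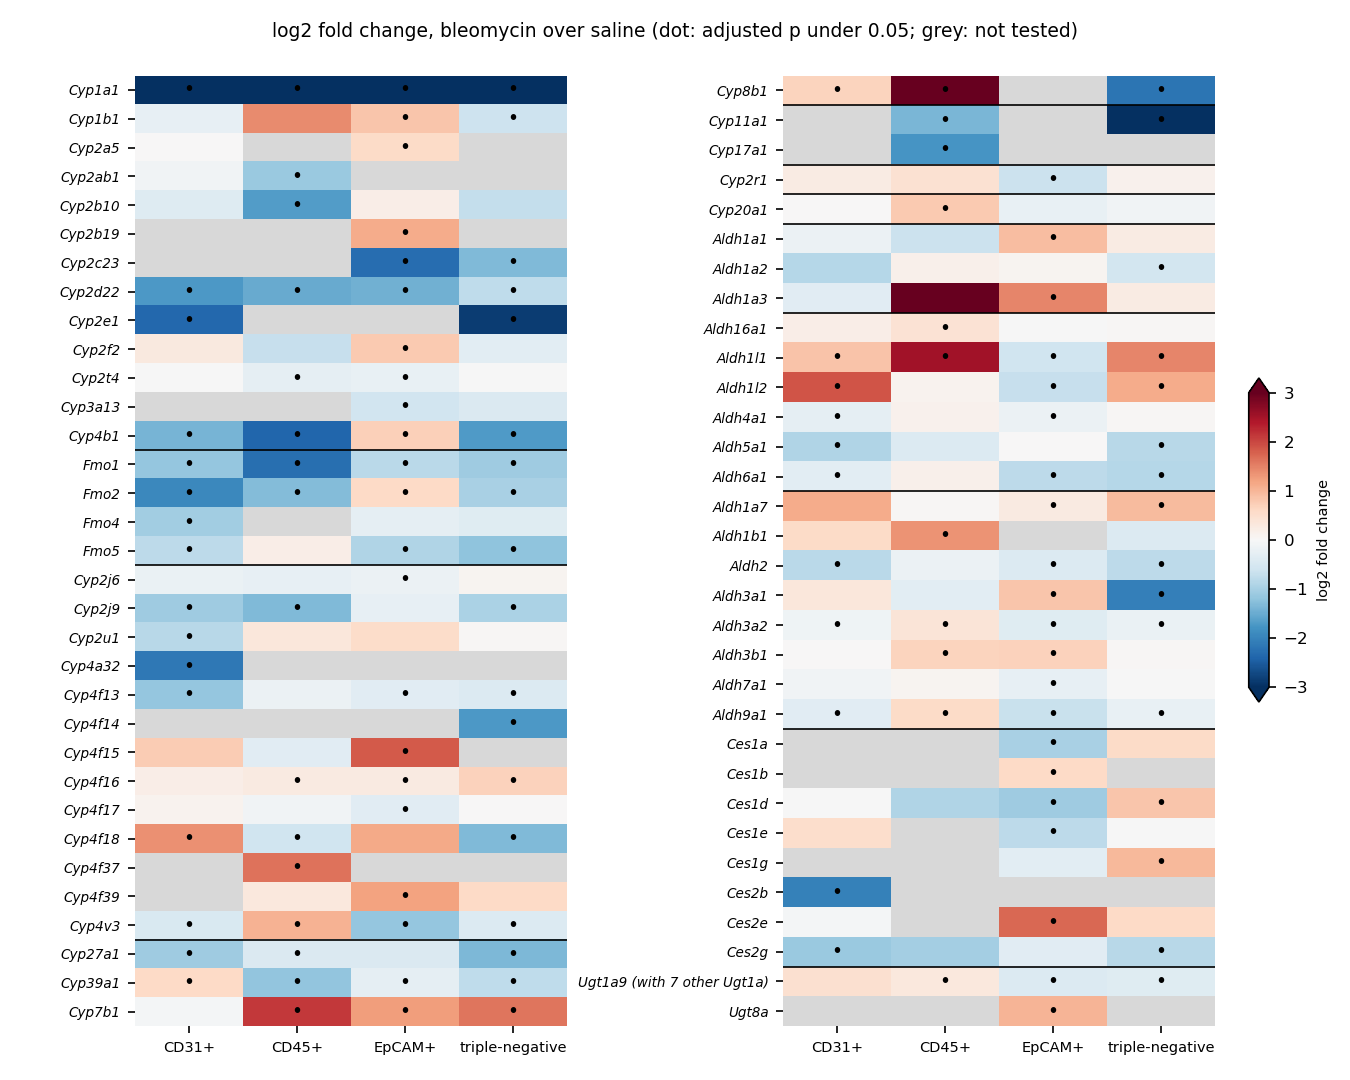
log2 fold change of bleomycin over saline in each fraction (columns) for members called in at least 1 fraction (rows), grouped by role between black lines, with the 8 Ugt1a genes shown as Ugt1a9. Red is higher and blue lower in bleomycin, colours stop at 3 and -3, a dot marks an adjusted p under 0.05 and grey a member not tested; Cyp1a1, Cyp2d22 and Fmo1 are dotted blue in all 4 columns.

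The count table lists its libraries in 2 runs of columns, whose meaning no source used here gives, and both treatments occur in each run. CD31+ libraries had 2 members higher and 14 lower within the first run and 4 higher and 19 lower within the second. For CD45+ libraries the counts were 9 higher and 7 lower, then 20 and 19. For EpCAM+ libraries they were 12 and 21, then 10 and 28, and for triple-negative libraries 4 and 33, then 10 and 28. With 2 to 5 libraries a group in each run, falls outnumbered rises within both runs in every fraction except CD45+.

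Across fractions, 3 members were lower in all 4: Cyp1a1, Cyp2d22, a member of the drug-oxidising Cyp2d subfamily, and Fmo1. None was higher in all 4, and Aldh1l1, Cyp4f16 and Cyp7b1 were higher in 3. Another 12 members were lower in 3 fractions, namely Fmo2, Fmo5, Cyp4b1, Cyp27a1, Cyp39a1, Cyp4v3, Cyp4f13, Cyp2j9, Aldh2, Aldh3a2, Aldh6a1 and Aldh9a1. In all 4 fractions 53 members were tested. Of all genes, 24.6% were lower in CD31+, 26.8% in CD45+, 28.9% in EpCAM+ and 27.7% in triple-negative libraries. How many of all genes were lower or higher in 3 or 4 fractions was not counted, so whether these numbers are unusual cannot be said.

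Among the xenobiotic P450s, Cyp1a1 had the largest fall in every fraction. In CD31+ libraries it had 1.16 to 353 CPM with a median of 3.30 under bleomycin, against 80.8, 1706, 1698, 1482 and 64.6 CPM in the 5 saline libraries. Apart from Bleomycin_CD31_621, which alone had 353 CPM, the other bleomycin libraries had at most 15.2 CPM and lay below every saline library. The log2 fold change was -4.20 (SE 1.53, adjusted p = 0.038), and -7.62 without Bleomycin_CD31_621 (0.000283).

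The same gene was scarce in the other fractions and lower there too. In CD45+ libraries it reached 10.1 CPM at most, with a median of 0.139 under bleomycin, against 4.68, 28.2, 45.7, 19.4 and 3.91 CPM in saline. EpCAM+ libraries had 0 to 3.68 CPM (median 0.166) under bleomycin, against 1.58, 14.1, 21.4, 8.22 and 0.769 CPM in saline, and triple-negative libraries 0 to 4.64 CPM (median 0.148), against 1.73, 5.03, 63.3, 4.35 and 1.17 CPM. In each fraction a single bleomycin library overlapped the saline range and the others lay below it. The log2 fold changes were -3.91 (SE 1.21, adjusted p = 0.0154), -3.89 (0.97, 0.00366) and -4.52 (1.19, 0.00533), and the test of a difference between the 4 fractions gave an adjusted p of 0.99. Of 6 endothelial markers, 6 fell in CD45+, 5 in EpCAM+ and 1 in triple-negative libraries, with medians of -1.33, -0.66 and -0.54. What part of these Cyp1a1 falls came from endothelial cells or RNA in the other fractions was not tested.

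These Cyp1a1 calls rest on few libraries. In CD31+ cells the call was lost on leaving out any of 9 libraries (adjusted p up to 0.0687) and without the filter on low counts (0.0859), in CD45+ without Saline_CD45_646 (0.0524), and in triple-negative cells without Saline_Negative_661 (-2.21, 0.0891). Within the first run of columns Cyp1a1 was -2.32 (adjusted p = 0.405) in CD31+, -3.21 (0.273) in CD45+, -3.39 (0.147) in EpCAM+ and -4.44 (0.0434) in triple-negative libraries, and within the second -8.93 (0.00241), -7.05 (0.00989), -5.26 (0.0125) and -5.22 (0.00165).

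**Figure D3:**
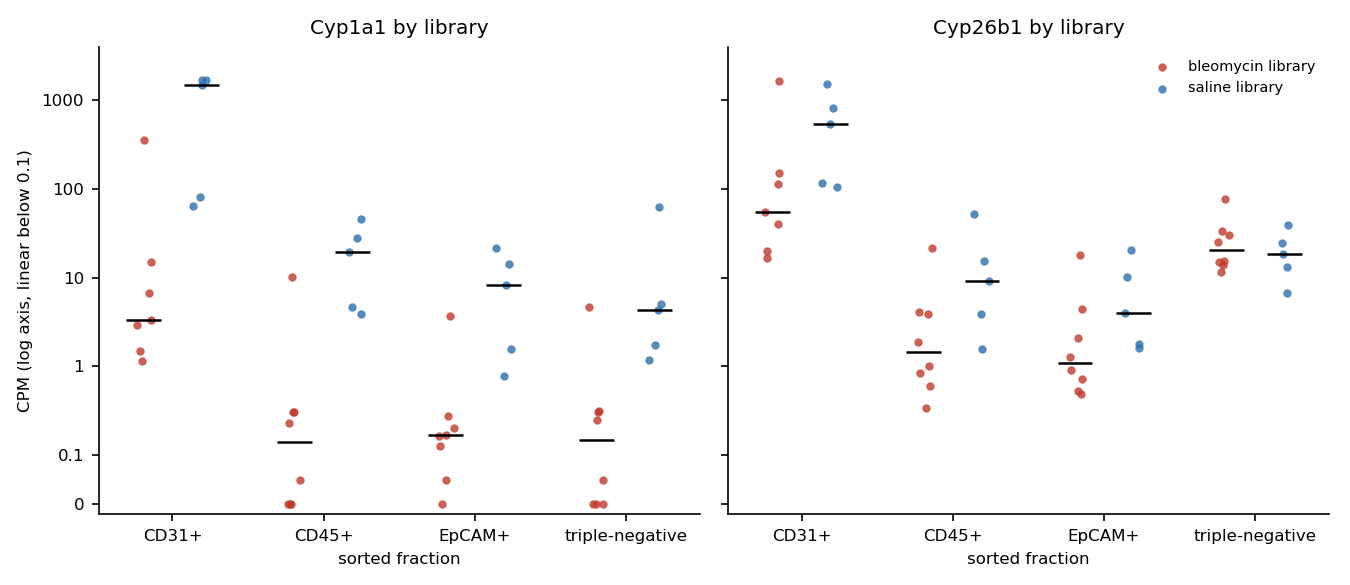
CPM of Cyp1a1 (left) and Cyp26b1 (right) in each library on a log axis that is linear below 0.1, with bleomycin (red) left of saline (blue) in each fraction and the group median as a black line. For Cyp1a1 a single bleomycin library in each fraction reaches the saline range, and for Cyp26b1 the groups overlap in all 4 fractions.

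Cyp1b1, the other classical target of the receptor, changed less. It had 29.0 to 84.5 CPM (median 58.5) under bleomycin, against 57.2, 114, 85.2, 101.7 and 85.0 CPM in saline triple-negative libraries, where its level was highest, and fell by 0.63 on the log2 scale (SE 0.21, adjusted p = 0.0191). In EpCAM+ libraries it rose by 0.84 (SE 0.27, adjusted p = 0.0162), with 6.87 to 24.7 CPM under bleomycin and 5.45 to 9.08 CPM in saline. The groups overlapped in both fractions. Cyp1b1 passed the test neither in CD31+ (-0.245, SE 0.375, adjusted p = 0.611) nor in CD45+ libraries (1.41, SE 1.05, 0.274). In CD31+ libraries it had 1.14 to 5.91 CPM in bleomycin and 2.17 to 3.55 CPM in saline. The test of a difference between the fractions missed the threshold (adjusted p = 0.0516), the triple-negative call was lost without Saline_Negative_660 (0.0606) or without the low-count filter (0.0503), and the EpCAM+ call within either run of columns (0.16 and 0.0953), the triple-negative call also within the first run (0.236), and both in a fit of all 51 libraries together (0.201 in triple-negative and 0.132 in EpCAM+).

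Of 5 receptor pathway genes, 3 fell in CD31+ libraries (24.6% of all genes did) and 0 rose (24.2%). Ahr itself had 234 ± 69.0 CPM in bleomycin and 484 ± 35.1 CPM in saline CD31+ libraries (-1.05, SE 0.17, adjusted p = 0.000365), and its repressor Ahrr, also a target, 0.492 ± 0.278 and 2.31 ± 0.854 CPM (-2.23, SE 0.39, 0.000434). Nqo1, a detoxifying reductase on the same list, had 4.68 to 7.76 CPM in bleomycin and 2.80 to 9.04 CPM in saline CD31+ libraries, groups that overlapped. In triple-negative libraries Ahr rose, with 48.9 ± 5.21 CPM in bleomycin against 18.2 ± 7.84 CPM in saline (1.43, SE 0.22, 9.9e-05), while the receptor target Tiparp fell (-1.27, SE 0.10, 4.53e-07). Tiparp also fell in CD45+ (-1.04) and EpCAM+ libraries (-0.76). In CD45+ libraries 3 of 5 tested genes of the list fell (26.8% of all genes did) and 1 rose (28.4%). In EpCAM+ libraries 2 of 4 fell (28.9% of all genes) and 1 rose (31.2%). Of 4 tested in triple-negative libraries 1 fell and 1 rose (27.7% of all genes each way).

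The endothelial enzymes Cyp4b1 and Fmo1 fell together with Fmo2 in CD31+ libraries. Cyp4b1 had 329 to 786 CPM (median 540) under bleomycin, against 1459, 1519, 1431, 1489 and 1483 CPM in saline. Fmo1 had 452 to 854 CPM (median 632.7) under bleomycin, against 1525, 1386, 1320, 1386 and 1544 CPM in saline. Fmo2 had 101 to 189.5 CPM (median 109) under bleomycin, against 475.7, 435, 462.9, 473 and 541.5 CPM in saline. Saline libraries were tightly grouped for all 3 genes and no bleomycin library came near them. The log2 fold changes were -1.40 (SE 0.20, adjusted p = 0.000107), -1.17 (0.15, 3.97e-05) and -1.92 (0.16, 2.6e-06).

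Fmo4 (-1.03) and Fmo5 (-0.78) fell as well in CD31+ libraries. Cyp2d22 had 44.7 to 83.6 CPM (median 56.5) in bleomycin, against 189, 224, 186, 202 and 184 CPM in saline CD31+ libraries, again with a wide gap (-1.71, SE 0.13, adjusted p = 1.88e-06). Endothelial markers moved less: of 6, 0 rose and 1 fell (Tie1, -0.42), with a summed level of 11610 to 15630 CPM in bleomycin and 15150 to 16380 CPM in saline. Smooth muscle and pericyte markers fell for 3 of 5 (51.7 to 98.9 CPM summed in bleomycin, 128 to 482 in saline) and leukocyte markers rose for 4 of 6 (54.4 to 297 and 31.2 to 69.2 CPM). Their part in the enzyme falls was not tested.

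**Figure D4:**
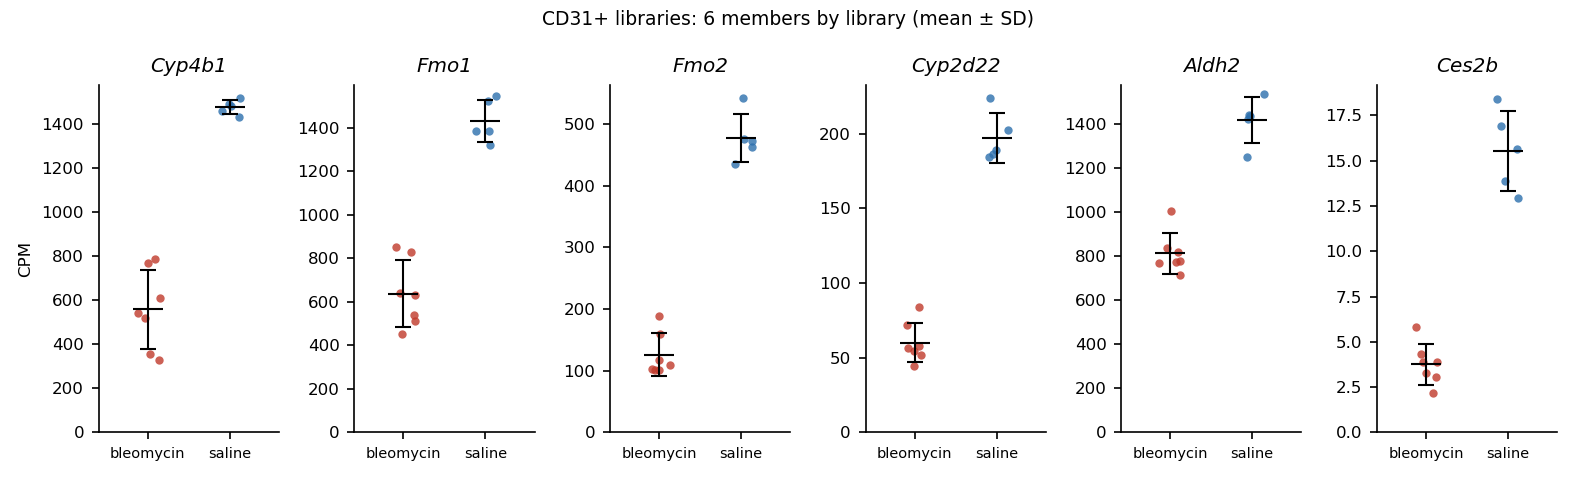
CPM of 6 members in each CD31+ library, with bleomycin (7 libraries, red) left of saline (5, blue) and mean ± SD as bars; each axis starts at 0. In every panel the highest bleomycin library lies below the lowest saline library, as for Cyp4b1 with 786 against 1431 CPM.

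In other fractions Cyp4b1 and the Fmo genes did not all follow. In CD45+ libraries Cyp4b1 had 5.45 to 12.2 CPM (median 8.02) under bleomycin, against 80.4, 28.0, 43.9, 15.4 and 64.1 CPM in saline, and Fmo1 5.61 to 14.1 CPM (median 9.32), against 75.7, 24.5, 38.0, 15.9 and 68.9 CPM. Neither pair of groups overlapped, and both genes fell (-2.38, SE 0.34, adjusted p = 6.17e-05, and -2.27, SE 0.35, 0.000121). All 6 endothelial markers also fell in CD45+ libraries, with a summed level of 174 to 350 CPM in bleomycin and 359 to 865 CPM in saline. Their part in these falls was not tested.

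In EpCAM+ libraries Cyp4b1 rose by 0.71 (SE 0.14, adjusted p = 0.000692), with 114 to 179 CPM (median 163) in bleomycin against 113, 73.3, 84.2, 78.2 and 125 CPM in saline, a slight overlap, and in the fit of all 51 libraries the call was lost (0.059). The difference from the CD31+ effect was -2.09 log2 units (CD31+ minus EpCAM+, SE 0.44, adjusted p = 0.000328). In triple-negative libraries Cyp4b1 fell by 1.70 (SE 0.39, adjusted p = 0.0021), with 8.60 to 27.9 CPM in bleomycin and 19.5 to 109 CPM in saline, groups that overlapped, and within the second run of columns it was -0.40 (0.434).

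Fmo2 is strongest in triple-negative cells, where it had 546 to 1597 CPM (median 828) in bleomycin and 2094, 1315, 1979, 1679 and 2016 CPM in saline (-0.98, SE 0.23, adjusted p = 0.00251). A single bleomycin library reached into the saline range. In EpCAM+ libraries Fmo2 rose by 0.59 (SE 0.19, adjusted p = 0.0153) with overlapping groups, a call lost within the second run of columns (0.38, 0.242) and in the fit of all 51 libraries (0.124). In CD45+ libraries it fell by 1.30 (SE 0.48, 0.0366), a call lost on leaving out any of 8 libraries and absent within the first run of columns (-0.04, 0.976). Fmo1 fell in EpCAM+ and triple-negative libraries, by 0.81 (SE 0.19, 0.00202) and 1.07 (0.15, 4.84e-05), and within the first run of columns its EpCAM+ change was -0.18 (0.527). Endothelial markers fell for 5 of 6 in EpCAM+ and 1 of 6 in triple-negative libraries, and their part in the Fmo1 falls was not tested.

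Cyp2e1 had its highest level in triple-negative libraries, with 10.8 to 33.8 CPM (median 20.3) under bleomycin against 69.4, 121, 247, 219.5 and 88.7 CPM in saline. The groups were well apart, at -2.85 log2 units (SE 0.35, adjusted p = 1.75e-05). In CD31+ libraries it averaged 0.226 ± 0.184 CPM in bleomycin and 1.16 ± 0.531 CPM in saline (-2.34, SE 0.46, 0.00103). Cyp2d22 changed by -1.503, -1.44 and -0.77 in CD45+, EpCAM+ and triple-negative libraries (adjusted p = 5.99e-05, 2.51e-08 and 8.44e-05), with no overlap between groups in any of the 3. Markers of smooth muscle and pericytes fell for 2 of 5 in triple-negative libraries, and of 6 fibroblast markers 3 rose and 2 fell. Their part in the Cyp2e1 change was not tested.

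Cyp2f2, the club cell P450, rose in EpCAM+ libraries, with 1771 to 3208 CPM (median 2352) under bleomycin against 1887, 893, 1052, 1143 and 2013 CPM in saline. The lowest bleomycin values lay within the range of the highest saline libraries. The change was 0.79 log2 units (SE 0.22, adjusted p = 0.00587). In the same libraries 4 of 5 club markers and 6 of 6 ciliated markers rose and 6 of 6 alveolar type II markers fell, the club sum being 28350 to 48450 CPM in bleomycin and 7528 to 19100 CPM in saline. Their part in the rises of Cyp2f2 and, in the same libraries, of Cyp4b1, Fmo2, Aldh1a1 and Aldh3a1 was not tested. Within the second run of columns Cyp2f2 was 0.60 (adjusted p = 0.121), and in the fit of all 51 libraries 0.78 (0.173). Elsewhere it passed the test in none of CD31+ (0.28), CD45+ (-0.69) and triple-negative libraries (-0.33), and the difference between fractions was not past the threshold (0.151). Within the second run it passed in CD31+ (1.90, adjusted p = 0.0421) and, the other way, in CD45+ libraries (-1.38, 0.002).

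Of the other xenobiotic P450s in EpCAM+ libraries, Cyp2a5, Cyp2b10 and Cyp2s1 moved less than Cyp2f2, while Cyp2c23 and Cyp2d22 moved more. Cyp2a5, the mouse coumarin and nicotine hydroxylase, rose in EpCAM+ libraries with 6.98 to 15.6 CPM in bleomycin and 5.44 to 9.96 CPM in saline (0.57, SE 0.18, adjusted p = 0.0135), a call lost within either run of columns (0.0823 and 0.0749) and in the fit of all 51 libraries (0.217). Cyp2b10, an inducible target of the constitutive androstane receptor in liver, had 95.1 to 163 CPM in bleomycin and 107 to 124 CPM in saline (0.20, SE 0.12, 0.145), and Cyp2s1 189 to 492.9 and 145 to 247 CPM (0.49, SE 0.21, 0.0574). Neither of these passed the test; of the settings tried, Cyp2s1 passed with the run of columns as a covariate (0.045). Cyp2c23, which epoxidises arachidonic acid, fell in EpCAM+ libraries, with 0.0806 to 0.728 CPM in bleomycin against 3.46, 1.81, 1.86, 1.35 and 1.98 CPM in saline (-2.29, SE 0.41, 0.000187) and in triple-negative libraries (-1.32, SE 0.24, 0.000351), without overlap in either.

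In CD45+ libraries Cyp2b10 fell by 1.67 (SE 0.38, adjusted p = 0.00188), with 0.819 to 3.50 CPM in bleomycin and 2.69 to 11.1 CPM in saline, and within the first run of columns the change was -0.53 (0.477). In triple-negative libraries Cyp2b10 was -0.72 (SE 0.56, 0.285), with -1.40 within the first run (0.0113) and 1.93 within the second (0.0403), which both passed the test in opposite directions. In all, 5 of 12 tested xenobiotic P450s rose (31.2% of all genes did) and 5 fell (28.9%) in EpCAM+ libraries. In CD31+ libraries 4 of 11 fell (24.6% of all genes), in CD45+ libraries 6 of 9 (26.8%) and in triple-negative libraries 6 of 11 (27.7%), and 0 rose in these 3 fractions, where 24.2%, 28.4% and 27.7% of all genes did.

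Retinoic acid is made from retinaldehyde by Aldh1a1, Aldh1a2 and Aldh1a3 and degraded by the Cyp26 enzymes. Aldh1a1 rose in EpCAM+ libraries, with 355 to 718 CPM (median 513) in bleomycin against 299, 239, 255, 254 and 345 CPM in saline. The lowest bleomycin library stood just above the highest saline library (0.93, SE 0.15, adjusted p = 0.0001). In triple-negative libraries, its other site, it had 228 to 580 CPM in bleomycin and 160 to 431 CPM in saline (0.25, SE 0.29, 0.477), and 0.75 within the second run of columns (0.00763). Aldh1a1 shares close sequence with Aldh1a7, and the counting could divide reads between them.

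Aldh1a2, which is mainly mesenchymal, had 90.8 to 199 CPM (median 149) in bleomycin against 294, 162, 176, 213 and 226 CPM in saline triple-negative libraries, with overlap (-0.56, SE 0.19, adjusted p = 0.0205). The call was lost without Saline_Negative_659 (0.0744), within either run of columns (0.052 and 0.171) and in the fit of all 51 libraries (0.0963). Aldh1a3 rose in EpCAM+ libraries at a low level, 1.03 ± 0.346 CPM in bleomycin and 0.370 ± 0.0959 CPM in saline (1.47, SE 0.30, 0.000478), a call lost within the first run of columns (0.0556) and in the fit of all 51 libraries (0.13). In CD45+ libraries its 2.98 (SE 1.27, 0.0628) missed the threshold, and Bleomycin_CD45_613, the library with the highest Col1a1 of its group (2690 CPM), held 15.7 CPM of Aldh1a3 against a group median of 0.714 CPM.

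Cyp26b1 spread widely among CD31+ libraries, with 16.6 to 1663 CPM (median 54.7) under bleomycin, against 106, 116, 546, 811 and 1523 CPM in saline. The groups overlapped and the test was not passed (-1.08, SE 1.15, adjusted p = 0.46). Without Bleomycin_CD31_624, whose value was 1663 CPM against 152 CPM in the next library, the change was -3.22 (0.00839). In CD45+ libraries it was -1.95 (0.114) and -3.21 without Bleomycin_CD45_616 (0.00722), in EpCAM+ libraries -1.10 (0.31) and -2.41 without Bleomycin_EpCAM_632 (0.0154), and in triple-negative libraries 0.45 (0.462). Each library left out here held the highest bleomycin value of its fraction, while the high saline libraries were kept. Within the first and second runs of columns the CD31+ change was -3.64 (0.0542) and 0.03 (0.991). It was -1.18 (0.403) and -1.95 (0.336) in CD45+ and -0.61 (0.645) and -1.07 (0.545) in EpCAM+ libraries. In triple-negative libraries the runs gave -0.29 (0.677) and 1.425 (0.14).

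Of 11 other retinoid genes, 8 were tested in each of CD31+ (1 higher and 3 lower), CD45+ (1 and 4) and EpCAM+ libraries (2 and 3), and all 11 in triple-negative libraries (4 and 3). Of all genes, 24.2% were higher and 24.6% lower in CD31+, 28.4% and 26.8% in CD45+ and 31.2% and 28.9% in EpCAM+ libraries. In triple-negative libraries 27.7% of all genes went each way. Lrat, which stores retinol as an ester, averaged 1.26 ± 0.784 CPM in bleomycin and 6.34 ± 4.75 CPM in saline CD31+ libraries (-2.33, SE 0.52, adjusted p = 0.00297). Dhrs3, which returns retinaldehyde to retinol, fell in CD31+ (-1.10, SE 0.15, 9.93e-05) and EpCAM+ libraries (-0.82, SE 0.08, 4.57e-07) and rose in CD45+ libraries (1.68, SE 0.24, 5.08e-05). In triple-negative libraries the retinoic acid binding gene Crabp1 rose, at 1.54 ± 0.518 CPM in bleomycin and 0.25 ± 0.201 CPM in saline (2.66, SE 0.50, 0.000436), and the retinoic acid receptor gene Rarb fell by 1.10 (SE 0.20, 0.000307).

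Aldh2 fell in 3 fractions with no overlap between groups. It had 717 to 1007 CPM (median 778) in bleomycin against 1252, 1541, 1445, 1438 and 1426 CPM in saline CD31+ libraries (-0.80, SE 0.08, adjusted p = 9.36e-06), and 307 to 596 CPM (median 398) against 775, 788, 801, 735 and 658.5 CPM in triple-negative libraries (-0.78, SE 0.15, 0.000631). The EpCAM+ fall was smaller, with 584 to 815 CPM in bleomycin and 842 to 983 CPM in saline (-0.41, SE 0.07, 0.000195), and the CD45+ difference did not pass (-0.17, SE 0.07, 0.0674), though it did with DESeq2 (0.0334).

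Among the remaining aldehyde dehydrogenases, Aldh3a1, which clears lipid aldehydes, took opposite directions in 2 fractions. It had 28.7 to 70.8 CPM in bleomycin and 19.7 to 38.6 CPM in saline EpCAM+ libraries (0.82, SE 0.23, adjusted p = 0.00808), but 1.78 to 3.84 CPM in bleomycin against 6.77, 11.9, 16.5, 11.2 and 6.78 CPM in saline triple-negative libraries (-2.04, SE 0.24, 7.26e-06). The EpCAM+ groups overlapped and the triple-negative groups did not, and the EpCAM+ call was lost within the second run of columns (0.159) and in the fit of all 51 libraries (0.0551). Aldh9a1, an enzyme of carnitine synthesis, fell in CD31+ (-0.35), EpCAM+ (-0.66) and triple-negative libraries (-0.22) and rose in CD45+ libraries, where it had 102 to 126 CPM in bleomycin and 74.7 to 79.8 CPM in saline (0.58, SE 0.06, 9.31e-07). Its CD31+ call was lost within the first run of columns (0.0599) and its triple-negative call within the second (0.313). Aldh3a2, the fatty aldehyde dehydrogenase, had the same signs in these fractions (-0.14, -0.36, -0.21 and 0.38). Its CD31+ call was lost on leaving out any of 9 libraries, within either run (0.202 and 0.449) and in the fit of all 51 libraries (0.0975). It was also lost with DESeq2 (0.0516), median-ratio size factors in place of TMM (0.0585), no low-count filter (0.145) and the run as a covariate (0.0589). The CD45+ call of Aldh3a2 was lost within the first run (0.101) and its triple-negative call within the second (0.156).

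Aldh1b1, a mitochondrial isoform, rose in leukocytes, with 21.8 to 31.9 CPM in bleomycin against 9.62, 10.7, 11.7, 12.5 and 7.30 CPM in saline CD45+ libraries (1.34, SE 0.14, adjusted p = 1.31e-06). Aldh3b1 rose there by 0.67 (SE 0.10, 5.9e-05) and in EpCAM+ libraries by 0.70 (SE 0.20, 0.0069). Aldh1a7 passed in EpCAM+ (0.26, SE 0.10, 0.039) and triple-negative libraries (0.94, SE 0.37, 0.0435), but its triple-negative call was lost on leaving out any of 9 libraries and its EpCAM+ call on leaving out any of 7.

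The folate enzymes Aldh1l1 and Aldh1l2, which oxidise formyl-tetrahydrofolate in the cytosol and in mitochondria, were among the few members that rose in several fractions. Aldh1l1 had 13.6 to 21.0 CPM (median 16.2) in bleomycin against 4.07, 1.87, 3.88, 1.48 and 2.98 CPM in saline CD45+ libraries (2.52, SE 0.23, adjusted p = 4.45e-07). In triple-negative libraries it had 16.4 to 20.9 CPM in bleomycin and 4.39 to 8.98 CPM in saline (1.46, SE 0.14, 1.36e-06). Both pairs of groups were far apart. EpCAM+ libraries, where the level was highest, went the other way, with 49.8 to 86.3 CPM in bleomycin and 89.8 to 122 CPM in saline (-0.59, SE 0.13, 0.000989). The CD31+ rise (0.85, SE 0.34, 0.0496) was lost on leaving out any of 6 libraries, under either other low-count filter (0.053 and 0.051) and within either run of columns (0.11 and 0.0744), and it was 0.47 (0.0465) without Bleomycin_CD31_621, which had 9.49 CPM against 2.62 to 4.21 CPM in the other bleomycin libraries. In CD31+ libraries 4 of 6 ciliated markers rose, with a sum of 14.7 to 58.9 CPM in bleomycin and 8.01 to 17.3 CPM in saline, as did 2 of 6 alveolar type II markers (916 to 10980 CPM and 350 to 1454 CPM). Their part in the CD31+ rise was not tested.

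Aldh1l2 rose in triple-negative libraries, with 15.4 to 37.9 CPM (median 30.0) in bleomycin against 9.83, 13.9, 9.73, 13.6 and 14.4 CPM in saline (1.12, SE 0.23, adjusted p = 0.000968). It also rose in CD31+ libraries, with 1.56 to 4.83 CPM in bleomycin and 0.528 to 0.964 CPM in saline (1.89, SE 0.27, 0.00011). Neither pair of groups overlapped. In EpCAM+ libraries it fell by 0.70 (SE 0.17, 0.00224).

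Of the fatty acid P450s, a group of Cyp2j, Cyp2u and Cyp4 genes, 5 of 10 tested fell in CD31+ libraries (24.6% of all genes did) and 1 rose (24.2%), and 5 of 10 fell and 1 rose in triple-negative libraries (27.7% of all genes each way). In EpCAM+ libraries 3 of 11 rose (31.2% of all genes did) and 4 fell (28.9%). In CD45+ libraries 3 of 11 rose (28.4% of all genes) and 2 fell (26.8%). Cyp4f18, the leukocyte form, had 128 to 204 CPM (median 149) in bleomycin against 174, 250, 223, 322 and 216 CPM in saline CD45+ libraries, groups that overlapped (-0.61, SE 0.14, adjusted p = 0.00219), a call lost within the second run of columns (-0.36, 0.112) and in the fit of all 51 libraries (0.0805). In triple-negative libraries it fell by 1.34 (SE 0.43, 0.0169), a call lost without Saline_Negative_661 (0.0735) and within the second run (0.0904). In CD31+ libraries it rose, at 2.74 ± 2.17 CPM in bleomycin and 1.05 ± 0.443 CPM in saline (1.38, SE 0.52, 0.0415), a call lost on leaving out any of 7 libraries, without the low-count filter (0.0606) and within either run (0.155 and 0.107). Leukocyte markers rose in the same CD31+ libraries, as given above, and fell for 2 of 6 in triple-negative libraries, where their sum was 30.9 to 160.5 CPM in bleomycin and 33.7 to 140 CPM in saline. Their part was not tested.

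Cyp4v3, a fatty acid hydroxylase, had 56.4 to 100.2 CPM (median 75.8) in bleomycin against 179, 186, 173, 190 and 158 CPM in saline EpCAM+ libraries (-1.16, SE 0.12, adjusted p = 1.87e-06). In CD45+ libraries it rose, with 64.3 to 82.5 CPM in bleomycin against 41.3, 33.2, 29.1, 36.1 and 36.2 CPM in saline (1.05, SE 0.09, 1.97e-07). The groups stood apart in both fractions, in opposite directions, and the effects differed by 2.17 log2 units (CD45+ minus EpCAM+, SE 0.15). In CD31+ and triple-negative libraries Cyp4v3 fell by 0.46 (SE 0.12, 0.00565) and 0.41 (SE 0.08, 0.000874), the CD31+ call being lost within the first run of columns (0.109) and the triple-negative one within the second (0.0555).

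In EpCAM+ libraries Cyp4f15 had 8.21 to 16.7 CPM in bleomycin against 5.12, 1.58, 1.41, 2.74 and 6.01 CPM in saline (1.84, SE 0.33, adjusted p = 0.00027), and Cyp4f39 4.48 to 8.60 and 2.06 to 3.21 CPM (1.22, SE 0.20, 5.85e-05). Cyp4f37 rose in CD45+ libraries at 1.40 ± 0.430 CPM in bleomycin and 0.453 ± 0.239 CPM in saline (1.63, SE 0.36, 0.00143), a call lost within the first run of columns (0.0883). Cyp4a32 fell in CD31+ libraries, with 0.375 to 1.09 CPM in bleomycin and 2.14 to 3.93 CPM in saline (-2.15, SE 0.27, 3.97e-05). The Cyp4a and Cyp4f genes lie in clusters of near-identical copies, so reads could be split or shared among them.

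Of the sterol and bile acid P450s, Cyp7b1, Cyp8b1 and Cyp27a1 changed in 3 fractions and Cyp39a1 in 4. Cyp46a1, which clears cholesterol from brain, passed the test neither in triple-negative (-0.02, adjusted p = 0.947) nor in EpCAM+ libraries (-0.12, 0.788), where alone it was tested. Cyp7b1, which acts on oxysterols, rose in triple-negative libraries, with 27.8 to 53.5 CPM (median 38.8) in bleomycin against 12.9, 9.89, 18.0, 11.4 and 12.2 CPM in saline (1.62, SE 0.18, adjusted p = 5.1e-06). It was also higher in CD45+ libraries (2.74 ± 2.18 CPM in bleomycin, 0.624 ± 0.319 CPM in saline, 2.13, SE 0.54, 0.00372) and in EpCAM+ libraries, where its mean was 0.564 CPM in bleomycin and 0.225 CPM in saline (1.26, SE 0.42, 0.0166). No bleomycin library overlapped saline in the first pair of fractions. Within the first run of columns the CD45+ (0.0979) and EpCAM+ calls (0.227) were lost. The highest CD45+ values, 7.28 CPM in Bleomycin_CD45_613 and 4.87 CPM in Bleomycin_CD45_616, came from the libraries that also had the most Aldh1a3 (15.7 and 6.82 CPM) and Cyp1b1 (10.1 and 3.32 CPM) of the fraction. Without Bleomycin_CD45_613 the CD45+ change was 1.71 (0.0036). Of 6 fibroblast markers 3 rose in CD45+ libraries, with a sum of 112 to 7599 CPM in bleomycin and 75.3 to 230 CPM in saline, and their part in the CD45+ rise of Cyp7b1 was not tested.

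Cyp8b1, the enzyme that sets the cholic acid share of bile acids in liver, rose in CD45+ libraries, with 2.68 to 6.21 CPM (median 4.15) in bleomycin against 0.953, 0.428, 0.436, 0.219 and 0.558 CPM in saline (3.002, SE 0.32, adjusted p = 2.41e-06). It also rose in CD31+ libraries, at 13.5 ± 3.05 CPM in bleomycin and 8.49 ± 0.984 CPM in saline (0.66, SE 0.16, 0.00369), a call lost within either run of columns (0.0663 and 0.0743). In triple-negative libraries it fell, with 0.210 to 0.654 CPM in bleomycin and 0.841 to 3.45 CPM in saline (-2.18, SE 0.36, 0.000132). All 5 alveolar macrophage markers rose in CD45+ libraries, with a sum of 1512 to 3134 CPM in bleomycin and 256 to 843 CPM in saline. Of 6 alveolar type II markers 1 rose, Lyz2, which macrophages express as well (1.86), and 1 fell, Sftpc (-1.28), with a median of -0.80. Their part in the leukocyte rises of Cyp8b1, Cyp7b1, Aldh1l1, Aldh1b1 and Cyp4v3 was not tested.

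Cyp27a1 fell in triple-negative libraries, with 17.5 to 57.6 CPM (median 26.1) in bleomycin against 86.3, 96.3, 87.4, 86.8 and 79.8 CPM in saline, without overlap (-1.34, SE 0.28, adjusted p = 0.000983). It also fell in CD31+ (-1.06, SE 0.24, 0.00258) and CD45+ libraries (-0.43, SE 0.12, 0.00726), calls that were lost within the first run of columns (0.111 in both), the CD45+ one also within the second (0.0501). Cyp39a1, another oxysterol hydroxylase, fell in CD45+ (-1.18, SE 0.20, 0.000189), triple-negative (-0.76, SE 0.12, 7.33e-05) and EpCAM+ libraries (-0.27, SE 0.10, 0.029) and rose in CD31+ libraries (0.59, SE 0.16, 0.00793). Its EpCAM+ call was lost within either run (0.367 and 0.0609) and in the fit of all 51 libraries (0.104), and its CD31+ call within the second run (0.245). The steroidogenic enzyme Cyp11a1, which cleaves the side chain of cholesterol, fell in triple-negative libraries, with 0.0497 to 0.841 CPM in bleomycin against 7.04, 2.34, 9.94, 1.70 and 7.10 CPM in saline (-3.94, SE 0.56, 5.3e-05).

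Of the carboxylesterases, Ces1d was the most abundant and fell in EpCAM+ libraries, with 451 to 713 CPM (median 609) in bleomycin against 1376, 1220, 1213, 1198 and 1283 CPM in saline (-1.07, SE 0.10, adjusted p = 2.23e-07). The groups were far apart. In triple-negative libraries it rose by 0.83 (SE 0.27, 0.0194), with 240.3 to 607 CPM in bleomycin and 142 to 312 CPM in saline, groups that overlapped, and the call was lost without Saline_Negative_660 (0.0508), within the first run (0.0716) and in the fit of all 51 libraries (0.0784). Alveolar type II markers fell for 6 of 6 in the EpCAM+ libraries, with a sum of 70670 to 116000 CPM in bleomycin and 173200 to 197100 CPM in saline. Their part in the fall of Ces1d was not tested.

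Ces2b fell in CD31+ libraries, with 2.19 to 5.80 CPM in bleomycin against 13.9, 16.9, 15.6, 18.4 and 13.0 CPM in saline (-2.04, SE 0.19, adjusted p = 4.22e-06). Ces1g rose in triple-negative libraries at 2.23 ± 0.649 CPM in bleomycin and 1.13 ± 0.714 CPM in saline (0.97, SE 0.32, 0.0172), a call lost within the first run of columns (0.49, 0.292) and in the fit of all 51 libraries (0.0747). Ces1f passed the test in no fraction (adjusted p 0.294 to 0.951). The Ces1 and Ces2 genes are clusters of close copies, so their counts are less certain than those of single genes.

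The 8 Ugt1a genes are alternative starts joined to the same last exons, and the counts did not separate them. Ugt1a9 and Ugt1a10 had equal counts in 50 of 51 libraries, and 6 of the 8 lay within 1% of Ugt1a9 in summed counts. Read as 1 measurement, Ugt1a9 had 66.1 to 96.8 CPM in bleomycin and 93.8 to 104 CPM in saline triple-negative libraries (-0.36, SE 0.08, adjusted p = 0.00188), and 60.4 to 90.9 and 84.0 to 98.5 CPM in EpCAM+ libraries (-0.41, SE 0.08, 0.000497). It was higher in CD45+ libraries, at 75.6 to 98.9 and 60.0 to 79.8 CPM (0.31, SE 0.08, 0.00504). The groups overlapped in all 3 fractions, and none of these calls held in the fit of all 51 libraries (0.0919, 0.0709 and 0.275).

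Only Ugt1a6a and Ugt1a7c exceeded Ugt1a9 by more than 1% in summed counts, and which exons held the excess cannot be read from these counts; Ugt1a7c is also the longest in annotated exon sequence (4217 bases, against 2190 for Ugt1a9). For Ugt1a6a the counts above those of Ugt1a9 were 18.1 ± 4.30 per M counts in bleomycin and 24.3 ± 2.48 in saline EpCAM+ libraries, and 15.3 ± 3.92 and 24.4 ± 2.68 in triple-negative libraries. For Ugt1a7c the excess was 26.1 ± 3.69 in bleomycin and 23.5 ± 0.885 in saline CD45+ libraries and 11.2 ± 2.20 and 11.1 ± 1.87 in triple-negative libraries. Group means were 1.32 per M counts or less for both in the remaining fractions. Ugt8a, which makes galactosylceramide, rose in EpCAM+ libraries at 1.86 ± 0.818 CPM in bleomycin and 0.904 ± 0.323 CPM in saline (1.03, SE 0.31, adjusted p = 0.00983), a call lost within the first run of columns (0.0745).

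Whether the response differed between cell fractions was tested in 1 fit of all 51 libraries, which takes them as independent, although the sources used here do not say which share an animal. Of 81 members tested, 51 passed (64.3% of all genes did), or 44 with the Ugt1a genes as 1. Of the 51, 21 were also called higher in 1 fraction and lower in another, 8 of them Ugt1a genes. How many of all genes had such opposite calls was not counted, so whether 21 is unusual cannot be said. The other 13 included Aldh1l1, Aldh1l2, Aldh3a1, Aldh3a2, Aldh9a1, Ces1d, Cyp39a1, Cyp4b1, Cyp4f18, Cyp4v3, Cyp8b1 and Fmo2. Of the 4 fractions' calls, Cyp4b1, Fmo2 and Aldh3a1 had a rise in EpCAM+ libraries alone, and Cyp4v3, Aldh9a1 and Aldh3a2 in CD45+ libraries alone. The EpCAM+ rises of Cyp4b1, Fmo2 and Aldh3a1 were called in the fit of that fraction and missed the threshold in the fit of all 51 libraries (adjusted p = 0.059, 0.124 and 0.0551). For Aldh3a1 the EpCAM+ effect exceeded the triple-negative one by 2.87 log2 units (SE 0.52), for Cyp4b1 by 2.42 (0.44) and for Fmo2 by 1.58 (0.44).

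**Figure D5:**
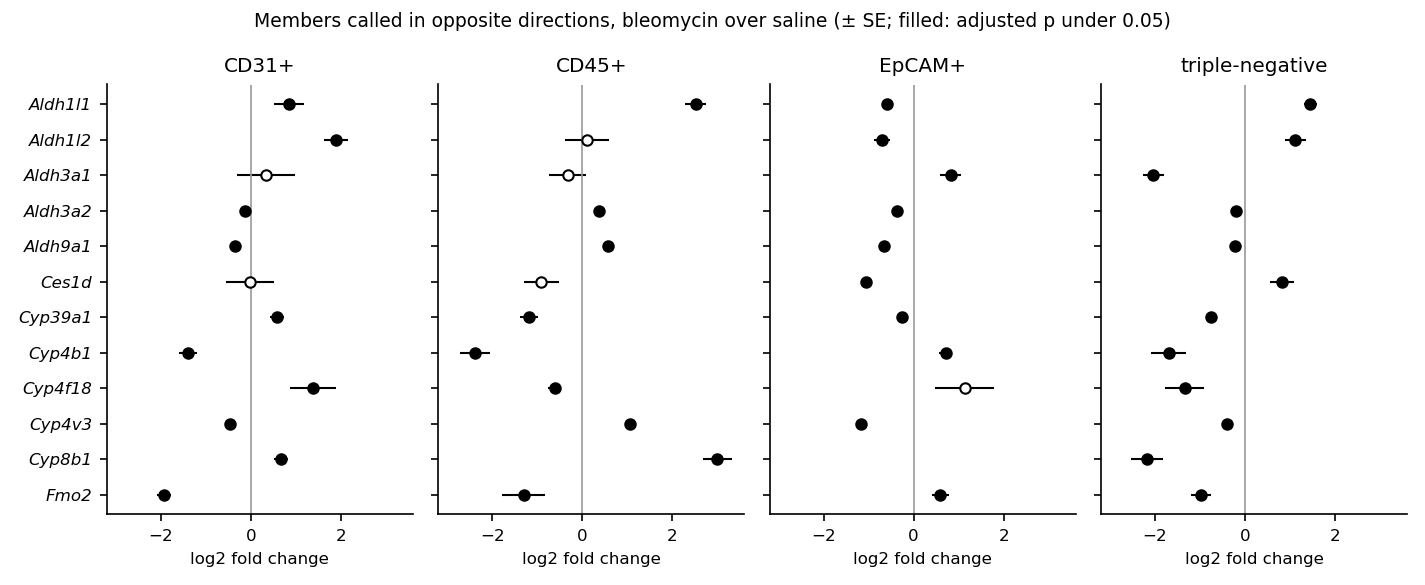
log2 fold change of bleomycin over saline with its SE in each fraction for these members, Ugt1a aside, called in opposite directions in at least 1 pair of fractions; filled points have an adjusted p under 0.05 and open points do not, and an absent point was not tested. Cyp4b1 and Fmo2 are to the right of 0 in EpCAM+ and to the left in the other 3 fractions, and Cyp4v3 and Aldh9a1 are to the right in CD45+ and to the left in the others.

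The genes that serve these enzymes were counted in the same way, and a difference between fractions was not tested for them. Of 8 electron donors and epoxide hydrolases, CD45+ libraries had 4 higher (28.4% of all genes were) and 0 lower (26.8%). CD31+ libraries had 2 higher (24.2% of all genes) and 3 lower (24.6%). EpCAM+ libraries had 2 higher (31.2%) and 2 lower (28.9%), and triple-negative libraries 3 and 2 (27.7% of all genes each way). Por fell slightly in CD31+ libraries (120.3 ± 17.3 CPM in bleomycin, 145 ± 11.1 CPM in saline, -0.27, SE 0.10, adjusted p = 0.0325). Ephx1, the microsomal epoxide hydrolase, fell in CD31+ libraries (129 ± 34.5 and 271 ± 19.9 CPM, -1.07, SE 0.16, 0.00014) and rose in EpCAM+ libraries (271 ± 26.9 and 132 ± 5.69 CPM, 1.04, SE 0.07, 1.58e-08).

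Among 40 partner genes of all kinds, the largest fall by fraction was that of Lrat in CD31+ (-2.33) and CD45+ libraries (-2.69), of the sulfotransferase Sult1c2 in EpCAM+ (-2.18, with group means of 0.165 CPM in bleomycin and 0.767 CPM in saline) and of Tiparp in triple-negative libraries (-1.27). The largest rise was that of thromboxane synthase, Tbxas1, in CD31+ (1.19) and CD45+ libraries (1.99), of Sult4a1 in EpCAM+ (2.48) and of Crabp1 in triple-negative libraries (2.66). In CD45+ libraries Tbxas1 had a mean of 199.6 CPM in bleomycin and 50.1 CPM in saline.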

How the data were processed

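RNA of sorted lung cells was prepared with RNeasy and made into TruSeq Stranded Total RNA libraries, per the labels' protocols. The deposited values are raw read counts per Entrez gene for 51 libraries on GRCm38, per the submitters' processing notes; aligner, counter, annotation and strand setting are not stated in any source used here. Libraries held 15.7 to 36.5 M counts, which limits precision for members near 1 CPM. Members were found by matching Entrez identifiers to mouse symbols.

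Each fraction was fitted by itself with edgeR 4.0.16 in R 4.3.3 (quasi-likelihood test, robust, TMM factors, filterByExpr, two-sided), with Benjamini-Hochberg adjustment over all genes of the fit and a threshold of 0.05. Members are counted after that adjustment. Differences between fractions were tested as interaction terms over all 51 libraries, and saline fractions as a contrast with the mean of the other 3. CPM uses TMM sizes within the fraction, and levels per kb the TMM sizes of all libraries. DESeq2 1.42.0 was an alternative. Scripts were tested on simulated data.

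Named members were, in each fraction, the 5 largest changes each way past the threshold with a mean of at least 1 CPM, a list of lung members whatever their result, the 5 highest saline levels per kb and members called in opposite directions. Other named members complete a role group or appear in several fractions, and were chosen after their values were seen. The members and lists were chosen with earlier results of these data known. Counting of near-identical copies (Cyp4a, Cyp4f, Ces1, Ces2, Ugt1a, Aldh1a1 and Aldh1a7) is uncertain. The values of 1 member are not reported here; it stays in the counts.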

Additional observations from a re-analysis of the deposited data

Results flagged for a closer look

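In 12 of 116 groups of values 1 library stood far from the others of its group, where chance gives about 1 in 20. In CD31+ bleomycin libraries these were Bleomycin_CD31_621 with 9.49 CPM of Aldh1l1 (others 2.62 to 4.21) and 353 CPM of Cyp1a1 (others 1.16 to 15.2), Bleomycin_CD31_624 with 1010.0 CPM of Aldh2 (others 717 to 838), 1660.0 CPM of Cyp26b1 (others 16.6 to 152) and 6.82 CPM of Cyp39a1 (others 11.7 to 14.5), and Bleomycin_CD31_620 with 0.604 CPM of Cyp2e1 (others 0.0445 to 0.25). In CD45+ bleomycin libraries Bleomycin_CD45_613 had 10.1 CPM of Cyp1a1 (others up to 0.307) and 8.97 CPM of Cyp2d22 (others 3.27 to 5.45). Cyp1a1 also stood out at 3.68 CPM in Bleomycin_EpCAM_629 (others up to 0.273) and at 4.64 CPM in Bleomycin_Negative_637 (others up to 0.315). Saline_Negative_661 had 63.3 CPM of Cyp1a1 (others 1.17 to 5.03) and 2.39 CPM of Ces1g (others 0.681 to 1.01).

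The bleomycin effect differed between fractions, with calls in opposite directions, for the members named here (edgeR interaction test over all 51 libraries, adjusted p). Of all genes 64.3% passed this test, and opposite calls among all genes were not counted. Higher in CD45+ alone and lower in the other 3 fractions were Cyp4v3 (1.03e-14), Aldh9a1 (2.23e-14) and Aldh3a2 (4.19e-09). The CD31+ call of Aldh3a2 was lost in most other settings, as given above. Higher in EpCAM+ and lower in the other 3 were Cyp4b1 (8e-07) and Fmo2 (6.61e-05), and Aldh3a1 was higher in EpCAM+ but lower in triple-negative cells (4.46e-05). Aldh1l1 was higher in the other 3 fractions and lower in EpCAM+ cells (5.87e-11), and Aldh1l2 was higher in CD31+ and triple-negative and lower in EpCAM+ cells (1.27e-06). Cyp8b1 was higher in CD31+ and CD45+ and lower in triple-negative cells (4.8e-13). Cyp39a1 (7.44e-09) and Cyp4f18 (0.000443) were higher in CD31+ cells, with Cyp39a1 lower in the other 3 fractions and Cyp4f18 lower in CD45+ and triple-negative cells. Ces1d was higher in triple-negative and lower in EpCAM+ cells (0.0058). The Ugt1a genes, which share most counts, were higher in CD45+ and lower in EpCAM+ and triple-negative cells: Ugt1a6a (0.00453), Ugt1a7c (0.00715), Ugt1a5 (0.00884), Ugt1a10 (0.00913), Ugt1a9 (0.00915), Ugt1a2 (0.00924), Ugt1a6b (0.00941) and Ugt1a1 (0.00955).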

How the results depend on the processing

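Without a filter on low counts, members higher in CD31+ numbered 3 (5 as reported) and in EpCAM+ 32 (19 as reported). In the fit of all 51 libraries CD31+ had 9 higher, and CD45+ had 15 higher and 21 lower (20 and 14 as reported). There EpCAM+ had 14 higher and 21 lower (19 and 32 as reported) and triple-negative 4 and 27 (7 and 35 as reported). Falls thus outnumbered rises in CD45+ libraries in that fit, the other way round from the fit of the fraction. Within the first run of columns CD31+ had 2 higher and 14 lower (5 and 22), CD45+ 9 and 7 (20 and 14), EpCAM+ 12 and 21, and triple-negative 4 higher, and within the second EpCAM+ had 10 higher. With Ugt1a as 1 gene, a count chosen after seeing the data like the fits within runs, CD45+ had 13 higher, and 13 in saline. Leaving out 1 library gave 3 to 7 higher and 19 to 22 lower in CD31+, 20 to 21 and 10 to 18 in CD45+, 17 to 21 and 29 to 34 in EpCAM+, and 5 to 7 and 33 to 36 in triple-negative libraries. The count of 3 came without Saline_CD31_649, Saline_CD31_650 or Saline_CD31_652. Members differing between fractions then numbered 48 to 55, and the saline counts were 19 in CD31+, 20 in CD45+, 45 to 46 in EpCAM+ and 40 to 43 in triple-negative libraries. Cyp2b10 in triple-negative libraries was 1.93 within the second run (-0.72 as reported). The causes were not tested.

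Of 160 named values, 37 lost their call within the first run of columns, 21 within the second and 40 in the fit of all 51 libraries. Without the filter 8 did, with DESeq2 1 and with a run as a covariate 2. The 160 include values not called as reported, such as Cyp26b1 in every fraction, which had no call to lose. The share of calls that were lost is therefore larger than these counts over 160. Fits within a run have fewer libraries. No paired analysis was made, because replicate numbers are not shared between the groups and no label ties libraries of different fractions to 1 animal. Tests across fractions take the libraries as independent. Some libraries extreme in Cyp1a1 or Cyp26b1 held equal places by label number across fractions, as given below, and fits that allow for this were not made. Depth limits members near or below 1 CPM, such as Cyp1a1 outside CD31+ cells under bleomycin.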

Other observations

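Each library carries a number in its label, and no label says that equal places in that order mark 1 animal. In every fraction the bleomycin library with the most Cyp1a1 was the second by label number, with 352 CPM (CD31+), 8.84 CPM (CD45+), 3.78 CPM (EpCAM+) and 4.95 CPM (triple-negative) on the scale of all 51 libraries. For Cyp26b1 it was the fifth by label number, with 1673, 19.2, 18.6 and 81.5 CPM.

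In saline libraries the fifth by label number had the most Cyp26b1 in all 4 fractions, with 1512, 48.1, 21.3 and 42.2 CPM, and the least Cyp1a1, with 64.2, 3.61, 0.802 and 1.26 CPM. The first by label number had the next lowest Cyp1a1 in all 4 fractions. In the order of label numbers, saline CD31+ libraries had 80.8, 1706, 1698, 1482 and 64.6 CPM of Cyp1a1, 2.0, 2.58, 2.69, 3.25 and 1.002 CPM of Ahrr, the repressor induced by the aryl hydrocarbon receptor, and 4.49, 7.13, 9.04, 7.51 and 2.80 CPM of Nqo1, a detoxifying reductase. These places were noticed after the values were seen, and what links the libraries was not tested.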
